A study of Mus musculus with 18 samples.

Results

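The proteasome genes of mouse bone marrow-derived macrophages (BMDMs) were followed through coculture with tubular epithelial cells (TECs) and calcium oxalate crystals. Members were the genes whose symbol starts with Psm, a letter from a to g and a digit, which gave 50 of the 25926 genes in the table. Of these, 5 were set against the other 45: Psmb8, Psmb9 and Psmb10, the interferon-inducible catalytic subunits of the immunoproteasome, and Psme1 and Psme2, the alpha and beta subunits of its activator PA28. The rule used names and no measured value, but the members were chosen with earlier results of these data known. The rule also drew in Psmc3ip, which codes for a protein of meiotic recombination that binds the ATPase Psmc3 and is no subunit, and Psme2b, a copy of Psme2 elsewhere in the genome with which reads can be shared, so that the values of both Psme2 and Psme2b are uncertain.

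The proteasome degrades ubiquitin-tagged proteins. Its barrel-shaped core particle is built of outer rings of alpha subunits and inner rings of beta subunits, of which Psmb6, Psmb7 and Psmb5 carry the active sites, and the regulatory particle on the end of the barrel recognises, unfolds and feeds in the substrate. In cells exposed to interferon, Psmb9, Psmb10 and Psmb8 replace Psmb6, Psmb7 and Psmb5 in newly assembled cores, and PA28 caps the barrel, which alters the peptides that are offered on MHC class I molecules. Macrophages are known to carry both forms.

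BMDMs of C57BL/6J mice, grown for 7 days in 50 ng/mL M-CSF, sat on a Transwell membrane (0.4 μm pores) above primary TECs, and RNA was sequenced from 6 samples in each of 3 groups. NC received PBS above TECs without crystals, COM received PBS above TECs given 100 μg/mL calcium oxalate monohydrate for 24 h, and COM+Met received 5 mM Met, an abbreviation that the labels do not spell out, for 24 h above crystal-treated TECs. Every group held TECs, so that the effect of coculture itself was not measured. Whether the 6 samples of each group were separate mice or separate cultures is not stated, so p-values reflect the scatter among these samples alone, which may be technical. Levels were in FPKM, fragments scaled to the length of the gene and the total of the sample, and the read depth is unknown. The summed FPKM of a sample lay between 380731 and 449186. Sample COM-6 stood apart, with correlations (log2 scale, 10751 genes) of 0.888 to 0.935 with the other COM samples, which among themselves reached 0.948 to 0.995, so the counts of members that passed and the results that rest on it are given with and without it. NC samples correlated at 0.938 to 0.995 and COM+Met samples at 0.989 to 0.995. Of 7 macrophage markers, 2 were higher and 1 lower in COM against NC (limma adjusted p below 0.05), beside 12.7% and 40.6% of all genes. Their summed level was 10375 to 16688 FPKM over all samples, most of it Lyz2 (8531 to 14541 FPKM). That of 10 tubular epithelial markers was 10.9 to 18.2 FPKM in NC, 0.468 to 1.37 in COM and 0.0575 to 0.332 in COM+Met, most of it Cdh1 (9.45 to 17.8 FPKM in NC), with Krt18 at 0 throughout. That of 8 neutrophil markers was 392 to 595 FPKM in NC, 34.0 to 329 in COM and 19.5 to 45.4 in COM+Met. Mpo and Elane, at most 0.263 and 1.07 FPKM in NC, were at 0 in COM and COM+Met. Camp went the other way in COM, with a mean of 4.33 FPKM in NC and 7.93 in COM. Of the 5 neutrophil markers tested in COM against NC, 0 were higher and 3 lower, and 1 and 3 without COM-6. The summed level of 7 lymphocyte markers stayed at or below 1.30 FPKM. That of 6 dendritic cell markers was 1.03 to 23.4 FPKM in NC, 63.6 to 220.3 in COM and 37.7 to 75.5 in COM+Met, most of it Ccr7. These marker sums moved with the groups, and their part in the results that follow was not tested. In bulk RNA, fewer cells of a type and less RNA per cell cannot be told apart.

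All 50 members were found by Ensembl identifier in GENCODE M21 (GRCm38). Psmb9 (chr17:34181987-34187764, minus strand) and Psmb8 (chr17:34197721-34201454, plus strand) lie in the MHC on either side of Tap1, a subunit of the transporter that carries peptides into the endoplasmic reticulum. Psmb9 and Tap1 face away from each other and overlap by 212 bp. How reads were assigned to strands is not given in the sources used here, so reads from that overlap cannot be told apart. Psme1 (chr14:55578123-55581529, plus strand) and Psme2 (chr14:55587441-55591113, minus strand) are neighbours 5911 bp apart, and Psmb10 (chr8:105935735-105938444, minus strand) lies on another chromosome. Of the constitutive partners, Psmb5 is at chr14:54614119-54618022 (minus strand), Psmb6 at chr11:70525367-70527858 (plus strand) and Psmb7 at chr2:38588036-38644087 (minus strand).

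The 250 bases before the RefSeq start (GRCm38.p6) are shown for an immunoproteasome subunit, its constitutive partner, the subunit that shares its start region with Tap1 and an activator subunit, to set side by side the start regions of genes that moved and of a gene that moved little. Capitals mark a gamma-activated site (TTCNNNGAA) in Psmb8 (chr17:34197945-34198194, plus strand) and an antioxidant response element (TGACNNNGC) in Psmb5 (chr14:54617996-54618245, minus strand). Psmb9 (chr17:34187331-34187580, minus strand) and Psme1 (chr14:55578244-55578493, plus strand) held neither of these letters in this stretch. For Psmb8, Psmb9 and Psme1 the stretch lies inside the gene as bounded in GENCODE M21, which begins farther upstream.
Psmb8: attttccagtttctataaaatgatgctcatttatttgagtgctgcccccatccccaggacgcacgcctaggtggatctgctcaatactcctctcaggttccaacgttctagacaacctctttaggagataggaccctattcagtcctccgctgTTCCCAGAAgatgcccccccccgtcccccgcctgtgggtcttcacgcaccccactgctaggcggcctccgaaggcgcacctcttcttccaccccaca
Psmb5: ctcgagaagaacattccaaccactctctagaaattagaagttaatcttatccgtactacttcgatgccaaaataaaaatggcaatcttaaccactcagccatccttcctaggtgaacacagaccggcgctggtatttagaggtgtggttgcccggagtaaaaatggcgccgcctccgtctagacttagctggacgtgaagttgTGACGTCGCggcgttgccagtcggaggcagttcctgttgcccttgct
Psmb9: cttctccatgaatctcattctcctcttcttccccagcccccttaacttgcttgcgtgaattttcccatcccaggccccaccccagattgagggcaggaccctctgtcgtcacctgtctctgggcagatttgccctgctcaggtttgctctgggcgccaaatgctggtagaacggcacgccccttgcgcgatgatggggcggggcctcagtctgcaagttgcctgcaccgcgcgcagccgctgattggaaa
Psme1: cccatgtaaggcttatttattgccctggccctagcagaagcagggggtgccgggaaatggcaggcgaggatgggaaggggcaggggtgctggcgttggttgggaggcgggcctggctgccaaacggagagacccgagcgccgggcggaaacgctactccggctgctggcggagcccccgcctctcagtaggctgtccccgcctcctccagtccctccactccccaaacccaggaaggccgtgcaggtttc

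Both motifs and the core of the interferon-stimulated response element (GAAANNGAA) were searched on both strands in windows of 250 bases before to 50 after the start, of which the members had 45 (42 genes matched) among 32851 in all. The gamma-activated site was in 8.30% of all windows and in 3 member genes, Psmb8, Psmd2 and Psmg1. The interferon-stimulated element was in 8.56% of all windows and in 7 member genes. Of these, Psme1, with its match beginning at base 11 from the RefSeq start, was the 1 gene among the 5. The antioxidant element was in 12.4% of all windows and in 6 member genes, Psmb5, Psmb6, Psmc6, Psmd9, Psmd12 and Psme4, and was found in 0 of the 5. Of the 5, Psmb8, Psmb9 and Psme1 had windows, and whether Psmb10 and Psme2 were among the 42 genes matched was not recorded. A match says only that these letters are present.

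The comparison of COM with NC asked how the macrophages' proteasome genes differed above crystal-treated TECs. The 5 immunoproteasome genes all rose, by 2.42 to 3.75-fold, and the copy Psme2b by 2.90-fold, while no other tested member rose by more than 1.78-fold. Of the 48 members tested (mean of at least 1 FPKM, limma on log2(FPKM + 1), adjusted p below 0.05 over all genes tested), 12 were higher and 6 were lower. Over all 10900 genes tested, 12.7% were higher and 40.6% were lower. At a change of at least 2-fold there were 6 higher members, the 5 and Psme2b, against 5.99% of all genes. Psma8, the alpha subunit of germ cells, and Psmb11, the beta subunit of the thymus, were below the filter, with means of 0.427 to 0.767 FPKM and at most 0.00133 FPKM in any group.

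Psmb8, which takes the place of Psmb5, lay between 33.5 and 51.8 FPKM in NC with a median of 46.0. In COM it was 127, 132 and 138 FPKM in COM-1 to COM-3, 268 and 251 in COM-4 and COM-5, and 99.6 in COM-6. In COM+Met the lowest, median and highest values were 207, 220.1 and 246 FPKM. Every COM sample was above every NC sample, and COM-4 and COM-5 were above every COM+Met sample. The COM against NC difference was 1.87 ± 0.24 (SE) on the log2 scale (limma adjusted p = 4.08e-05).

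Psmb10, the counterpart of Psmb7, ran from 28.9 to 50.1 FPKM in NC (median 46.3), from 52.0 to 201 in COM (median 108) and from 158 to 181 in COM+Met (median 169). NC and COM did not overlap, although COM-6, at 52.0 FPKM, was within 2 FPKM of NC-1. The difference was 1.47 ± 0.29 on the log2 scale (limma adjusted p = 0.00105). Psmb9, the counterpart of Psmb6, ran from 14.6 to 26.0 FPKM in NC (median 22.9), from 24.6 to 96.3 in COM (median 46.0) and from 67.8 to 81.4 in COM+Met (median 73.2). COM-6 lay inside the NC range, while COM-1 to COM-5 were all above it, at 40.3 FPKM or more. The difference was 1.28 ± 0.30 with COM-6 and 1.48 ± 0.26 without it (limma adjusted p = 0.00357 and 0.000557).

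The activator genes rose as far. Psme1 ran from 57.1 to 73.0 FPKM in NC (median 65.5), from 197 to 329.8 in COM (median 222) and from 237 to 277 in COM+Met (median 249). Psme2 ran from 55.7 to 81.8 FPKM in NC (median 63.8), from 127 to 338 in COM (median 232) and from 268 to 322 in COM+Met (median 283). Neither gene's COM samples overlapped NC. The differences were 1.91 ± 0.15 for Psme1 and 1.81 ± 0.21 for Psme2 on the log2 scale (limma adjusted p = 6.51e-07 and 1.69e-05). The alpha and beta subunits kept similar levels per length in 17 samples, with a ratio of Psme1 to Psme2 of 0.851 to 1.09, and stood apart in COM-6 at 1.85. Psme2b rose by 1.53 ± 0.15 (limma adjusted p = 4.38e-06), from a median of 36.2 to 96.9 FPKM.

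**Figure D1:**
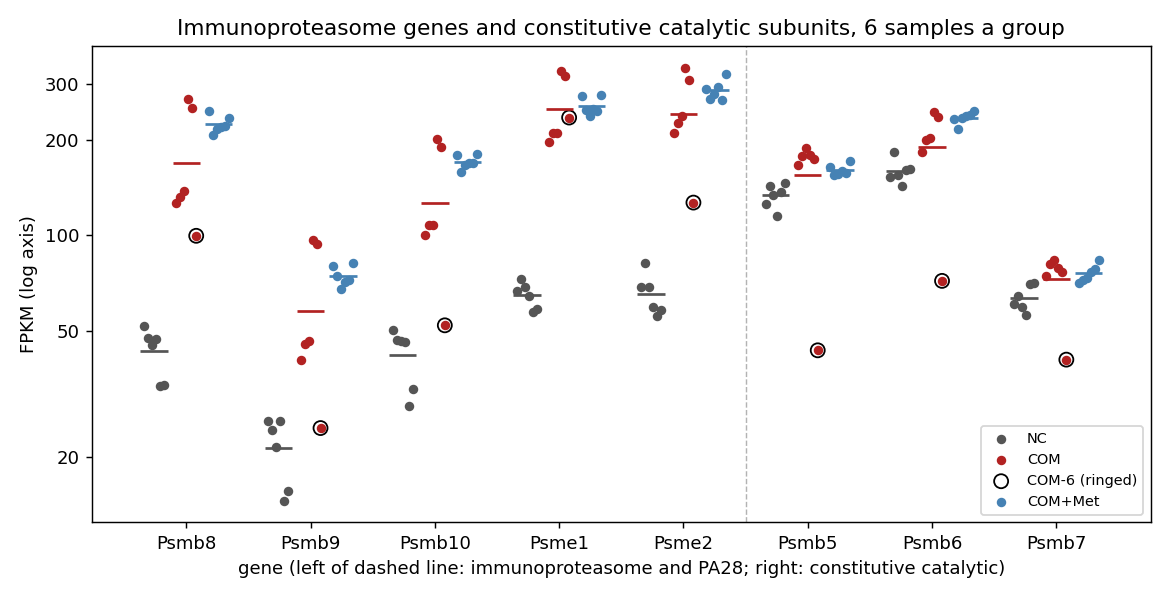
FPKM (log axis) of the 5 immunoproteasome genes and the 3 constitutive catalytic subunits in each of 18 samples, with a short line at each group's mean and a ring around COM-6. The COM samples of the immunoproteasome genes form a lower set (COM-1 to COM-3) and a higher one (COM-4 and COM-5), and COM-6 is far below the other COM samples in Psmb5, at 43.3 FPKM.

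The constitutive catalytic subunits lay higher than their inducible counterparts in NC and moved little. Psmb5 ran from 115 to 147 FPKM in NC (median 135), from 43.3 to 188 in COM (median 175) and from 155 to 171 in COM+Met (median 158). Psmb6 ran from 143 to 183 FPKM in NC (median 157), from 71.8 to 244 in COM (median 201) and from 217 to 247 in COM+Met (median 236). Psmb7 ran from 55.9 to 70.4 FPKM in NC (median 62.5), from 40.5 to 83.8 in COM (median 77.6) and from 70.7 to 83.7 in COM+Met (median 75.0). In each of the 3, COM-6 was the lowest of all 18 samples. With COM-6, none of the 3 passed in COM against NC, with log2 differences of 0.07 to 0.16. Without COM-6 all 3 passed, at 0.41 ± 0.08 for Psmb5, 0.41 ± 0.09 for Psmb6 and 0.31 ± 0.08 for Psmb7 (limma adjusted p = 0.000761, 0.00266 and 0.00389). Their rise was then 1.24 to 1.33-fold, while that of the inducible partners was 2.80 to 4.01-fold.

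The ratio within each pair does not depend on how samples are scaled. Psmb8 made up 24.4% ± 4.46 (SD, n = 6) of the summed FPKM of Psmb8 and Psmb5 in NC, 52.8% ± 11.7 in COM and 58.2% ± 0.935 in COM+Met. Psmb9 made up 11.8% ± 2.86 of its pair with Psmb6 in NC, 22.9% ± 5.05 in COM and 24.1% ± 1.41 in COM+Met. Psmb10 made up 39.6% ± 7.20 of its pair with Psmb7 in NC, 61.7% ± 7.69 in COM and 69.2% ± 1.29 in COM+Met. No COM or COM+Met sample overlapped NC in any pair. In the means of all 3 groups Psmb9 had the smallest share and Psmb10 the largest, while in COM-6 the share of Psmb8 (69.7%) was above that of Psmb10 (56.2%). The log2 ratios, with 1 FPKM added to each gene, rose from NC to COM by 1.80 for Psmb8 to Psmb5, 1.12 for Psmb9 to Psmb6 and 1.31 for Psmb10 to Psmb7. Each had p = 0.00216 in a two-sided exact permutation test, the smallest that 6 against 6 samples allow, and 0.00325 after adjustment over 9 tests. Without COM-6 the differences were 1.60, 1.07 and 1.38.

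**Figure D2:**
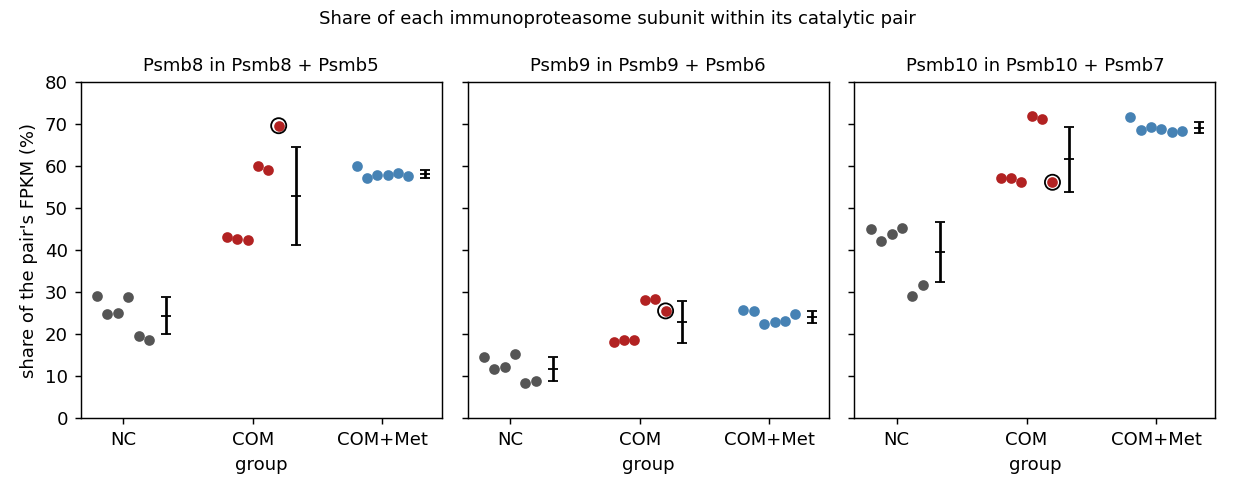
Share of each immunoproteasome subunit in the summed FPKM of its catalytic pair (%), for each sample of NC, COM and COM+Met, with the mean and SD beside the points and a ring around COM-6. The NC samples lie below all others in each pair, and COM samples spread from 42.4 to 69.7% for Psmb8.

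In each of the 5 immunoproteasome genes COM-4 and COM-5 were above COM-1 to COM-3. COM-6 was the lowest of COM in 4 of them, while in Psme1, at 235 FPKM, it lay above COM-1 to COM-3. Over all members, COM-4 and COM-5 were above COM-1 to COM-3 in 10 of the 50 members and below them in 21. The median of the 5 immunoproteasome genes was 127 to 138 FPKM in COM-1 to COM-3, 268 and 251 in COM-4 and COM-5, and 99.6 in COM-6, beside 33.5 to 51.8 in NC and 207 to 246 in COM+Met. The median of the 31 constitutive genes of the core and regulatory particles was 58.0 to 66.3 FPKM in COM-1 to COM-5, 43.3 in COM-6, 54.5 to 61.2 in NC and 59.7 to 67.1 in COM+Met. Among NC samples, NC-5 and NC-6 were the 2 lowest in 8 members and the 2 highest in 26. Neither these counts nor those of COM-4 and COM-5 were made over all genes, so they are not read as a trait of the members. The labels give no batch that separates these samples.

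The 31 constitutive subunits, 14 of the core particle and 17 of the regulatory particle, had a median log2 difference of 0.02 in COM against NC, beside −0.27 over all genes tested. Of these 31, 4 rose, 2 fell and 25 did not pass, beside 12.7% higher and 40.6% lower over all genes. Without COM-6 the counts were 10, 2 and 19, beside 15.5% higher and 44.2% lower. In the alpha ring, the gate of the core, Psma5 rose by 0.64 ± 0.11 and Psma2 by 0.37 ± 0.10 (limma adjusted p = 0.0004 and 0.00663), and the call of Psma2 was lost after removal of GC and length trends. Psma5 ran from 38.8 to 48.2 FPKM in NC (median 43.4), from 57.7 to 83.9 in COM (median 63.0) and from 60.3 to 76.4 in COM+Met (median 68.5), without overlap with NC. The other 5 alpha subunits had differences from 0.08 (Psma1) upward, all below that of Psma2, and did not pass. The non-catalytic beta subunits Psmb1, Psmb2, Psmb3 and Psmb4 did not pass, from −0.40 (Psmb3) to 0.01 (Psmb2), and without COM-6 from −0.09 (Psmb3) to 0.06 (Psmb4).

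In the base of the regulatory particle, Psmc2, an ATPase of the ring that unfolds substrates, rose by 0.21 ± 0.08 (limma adjusted p = 0.0465). That call was lost when any 1 of NC-1 to NC-5 or COM-1 to COM-5 was left out, with the replicate block and after removal of GC and length trends. The other ATPases lay between −0.34 (Psmc3) and 0.28 (Psmc6) without passing, and without COM-6 between −0.18 and 0.14. The scaffold subunits Psmd1 and Psmd2 and the ubiquitin receptor Psmd4 did not pass, at −0.12 to −0.01, and without COM-6 were at 0.0035 to 0.11. In the lid, which holds the deubiquitinase Psmd14, Psmd11 rose by 0.26 ± 0.09, and Psmd8 and Psmd6 fell by 0.50 and 0.49 on the log2 scale (limma adjusted p = 0.0281, 0.0105 and 0.0157). The call of Psmd11 was lost without NC-3, NC-4 or COM-4, with the replicate block and after removal of GC and length trends. Without COM-6, Psmd8 and Psmd6 were at −0.37 and −0.36 and passed. Psmd8, the member with the highest level in NC, ran from 206 to 224 FPKM there (median 217), from 98.2 to 180.1 in COM (median 163) and from 194 to 209 in COM+Met (median 199.6). NC and COM did not overlap in Psmd8 or Psmd6. The largest rise outside the 5 and Psme2b was that of Psmd10 (gankyrin), a chaperone of base assembly and no part of the finished particle. It ran from 21.5 to 33.4 FPKM in NC (median 25.0), from 42.7 to 51.2 in COM (median 46.9) and from 44.3 to 51.3 in COM+Met (median 47.1), and its rise was 0.83 ± 0.11 (limma adjusted p = 6.78e-05). The other base chaperones, Psmd5 and Psmd9, did not pass, at 0.13 and −0.42 (0.06 and −0.21 without COM-6).

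The chaperones of core assembly were low in level and had differences below 0 in COM, at −0.44 to −0.63, below the median of all genes. Psmg1 and Psmg2, which pair to build the alpha ring, fell by 0.63 and 0.54 on the log2 scale (limma adjusted p = 0.00319 and 0.00242), and Psmg3 and Psmg4 did not pass. Without COM-6 the range was −0.13 (Psmg4) to −0.53 (Psmg1), Psmg4 was then above the median of all genes (−0.22), and Psmg3, at −0.32, passed (limma adjusted p = 0.0364). Psmg1 ran from 7.34 to 10.0 FPKM in NC (median 9.32), from 3.52 to 6.92 in COM (median 5.84) and from 5.57 to 7.22 in COM+Met (median 6.13). Psme4 (PA200), another activator, rose by 0.62 ± 0.12 (limma adjusted p = 0.000771), from 15.6 to 17.1 FPKM in NC to 22.5 to 36.7 in COM, without overlap. The nuclear activator subunit Psme3 had a difference of −0.14 and did not pass. Psmf1 (PI31), named as an inhibitor of the core, fell by 0.25 (limma adjusted p = 0.0324), a call that was lost when any 1 of NC-1 to NC-5 or COM-2 was left out and with the replicate block. Psmc3ip fell by 0.87 (limma adjusted p = 0.00274), from a mean of 2.26 to 0.723 FPKM, and did not pass with quantile normalisation.

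**Figure D3:**
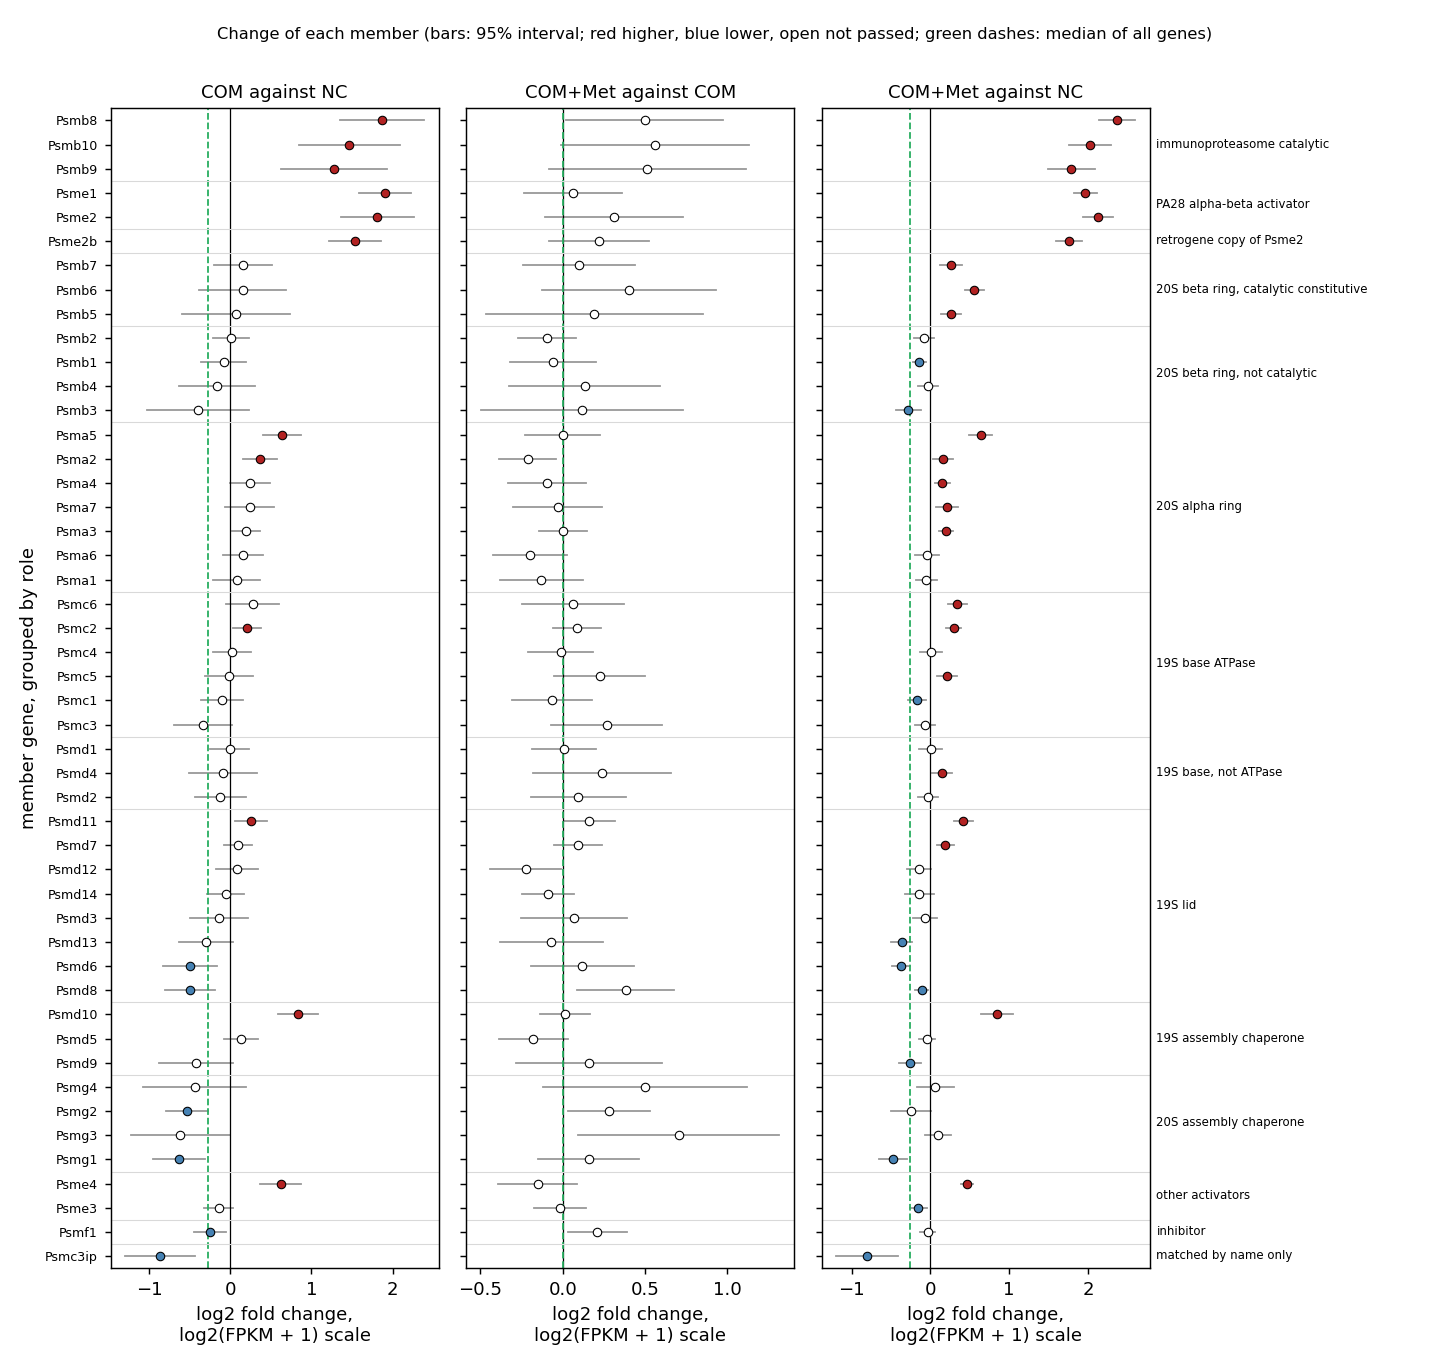
Log2 fold change of each tested member on the log2(FPKM + 1) scale with its 95% interval in the 3 comparisons, ordered by role. Red points passed higher and blue points lower at adjusted p below 0.05, open points did not pass, and the green dashes mark the median of all genes tested, −0.27 in COM against NC.

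The sign of small changes rested on the scaling. FPKM is relative to the total reads of a sample, and the median of all genes was −0.27 in COM against NC. Size factors by the median of ratios brought it to near 0 and moved the share of higher genes among all passing genes from 23.8% to 48.8%, and the members then counted 26 higher and 2 lower in place of 12 and 6. Under these factors the differences of the 5 immunoproteasome genes, and those of Psmd10, Psma5 and Psme4, were still above 0 and passed. Those of Psmd6, Psmd8 and Psmg2 no longer passed, and that of Psmf1 turned to 0.02.

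Without COM-6, 18 members were higher and 7 lower in COM against NC, beside 15.5% and 44.2% of all genes. The added rises were those of Psmb5, Psmb6, Psmb7, Psma3, Psma6 and Psma7. COM-6 was the lowest COM sample in 35 of the 50 members and the highest in 7, ranks that were not counted over all genes. It lay below the mean of COM-1 to COM-5 in 40 of the 48 tested members, beside 6985 of 10445 genes. Its difference from the mean of COM-1 to COM-5 was −0.13 (median, log2 scale) for the 11 tested members with up to 45% GC in their longest transcript, −0.36 for the 15 from 45 to 50%, −0.79 for the 15 from 50 to 55% and −0.95 for the 7 above. Across the 48 tested members the correlation of this difference with GC content was r = −0.61 (rho = −0.63), and across 10445 genes r = −0.64, each from the same 6 libraries and with genes that are not independent. Psmb5, with 56.6% GC, was the farthest below, at −2.003, and Psmc6 was above the other COM samples. The part of GC content in the comparisons was not tested beyond the removal of its trend together with that of transcript length, after which 10 members were higher and 7 lower.

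**Figure D4:**
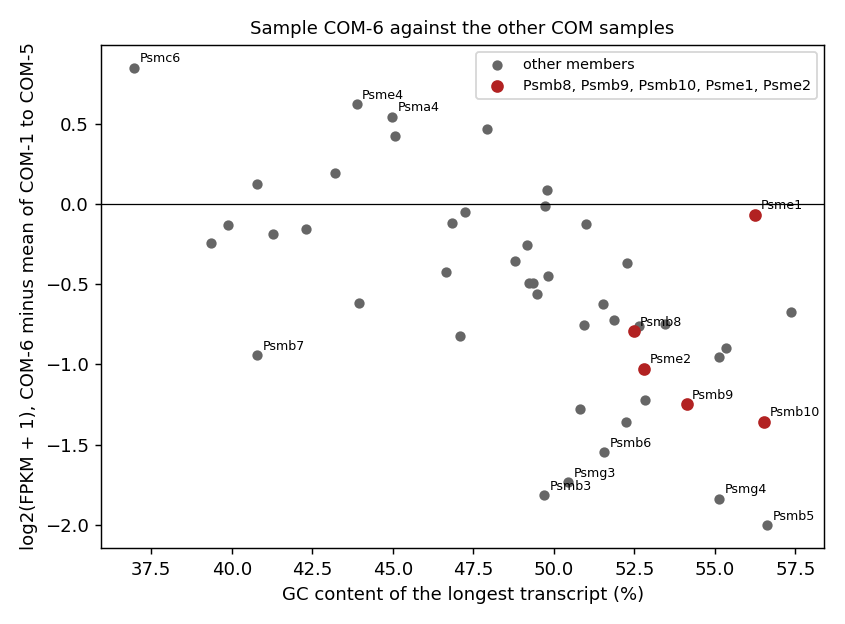
Difference between COM-6 and the mean of COM-1 to COM-5 on the log2(FPKM + 1) scale, against the GC content of the longest transcript (%), for the 48 tested members. Points fall with rising GC content (r = −0.61), and Psme1 lies near 0 while the other 4 immunoproteasome genes (red) lie below it.

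The comparison of COM+Met with COM asked whether Met changed these genes above crystal-treated TECs. By limma, 0 of 47 members tested were higher and 0 were lower, beside 5.77% and 7.58% of the 10364 genes tested. At an unadjusted p below 0.05 there were 6 and 2 members, for which the share over all genes was not computed. With limma's sample weights (arrayWeights), which count a sample less the more it departs from its group, the counts were 12 higher and 18 lower, beside 19.7% and 44.8% of all genes. These weights were 0.0350 for COM-6, 0.133 and 0.126 for COM-4 and COM-5, and 1.83 to 2.51 for COM-1 to COM-3, so that this fit set COM+Met mainly against those 3 samples. All 5 immunoproteasome genes then passed as higher, by 0.69 for Psmb8, 0.67 for Psmb9, 0.64 for Psmb10, 0.32 for Psme2 and 0.26 for Psme1 (weighted limma adjusted p from 1.75e-06 to 0.00201). Without weights none of them passed with all 12 samples, and Psmb8 passed when COM-4 was left out, at 0.65 (limma adjusted p = 0.0361). The unweighted log2 differences and 95% intervals of the inducible subunits were 0.50 (0.02 to 0.97) for Psmb8, 0.51 (−0.09 to 1.11) for Psmb9 and 0.56 (−0.01 to 1.13) for Psmb10. Those of the activator were 0.06 (−0.24 to 0.36) for Psme1 and 0.31 (−0.11 to 0.73) for Psme2. Without COM-6 the differences of the inducible subunits were 0.31 (Psmb9) to 0.37 (Psmb8). Those of Psme1 and Psme2 were then 0.05 and 0.14, and none of the 5 passed. The COM+Met samples lay within the COM range for all 5 genes, above COM-1 to COM-3 and, apart from COM+Met-6 in Psme2, below COM-4 and COM-5. Their spread was narrower, with an SD of 14.0 FPKM for Psmb8 against 71.4 in COM. The pair ratios differed by 0.30 for Psmb8 to Psmb5, 0.11 for Psmb9 to Psmb6 and 0.46 for Psmb10 to Psmb7, and none passed (two-sided exact permutation test, adjusted p = 0.251, 0.548 and 0.0751). Without COM-6 these differences were 0.51, 0.16 and 0.39, and none passed (same test, adjusted p = 0.0863, 0.409 and 0.156). The third ratio passed without COM-4 or without COM-5, at 0.59 and 0.58.

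Without COM-6, 3 members were higher and 3 lower in COM+Met against COM, beside 10.6% and 15.9% of all genes. The higher ones were Psmg3, at 0.42 ± 0.12, Psmd8, at 0.26 ± 0.06, and Psmc6, at 0.20 ± 0.05 (limma adjusted p = 0.0287, 0.0103 and 0.0141). The lower ones were alpha subunits, with Psma6 at −0.27 ± 0.07, Psma2 at −0.25 ± 0.06 and Psma1 at −0.23 ± 0.06 (limma adjusted p = 0.0161, 0.00875 and 0.0141). Psmd8 was above every COM sample in every COM+Met sample, also with COM-6. With COM-6 its difference was 0.38 ± 0.14 (limma adjusted p = 0.0814), which passed with median-of-ratios or quantile scaling, with all 18 samples in the fit and after removal of GC and length trends.

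The comparison of COM+Met with NC shares its samples with both others. Of 48 members, 22 were higher and 10 lower, beside 19.3% and 55.9% of the 10786 genes tested, and 6 were higher by at least 2-fold, beside 5.66%. The log2 differences were 2.37 ± 0.11 for Psmb8, 2.13 ± 0.09 for Psme2, 2.03 ± 0.12 for Psmb10, 1.97 ± 0.07 for Psme1 and 1.79 ± 0.14 for Psmb9. In all 5 genes COM+Met and NC did not overlap (limma adjusted p = 6.24e-10, 3.27e-10, 9.81e-09, 5.04e-11 and 8.63e-08). Groups without overlap were not counted over all genes, here or in the other comparisons. Such separation is therefore not read as a trait of the members. The constitutive catalytic subunits were also higher, Psmb6 by 0.56 ± 0.06, Psmb5 by 0.27 ± 0.06 and Psmb7 by 0.26 ± 0.06 (limma adjusted p = 1.37e-06, 0.00118 and 0.00303). With all 18 samples in 1 fit Psmb6 still passed, and Psmb5 and Psmb7 did not (limma adjusted p = 0.384 and 0.115). Of the 31 constitutive genes, 14 rose, 6 fell and 11 did not pass. The pair ratios were higher by 2.10, 1.23 and 1.77 in the order above, each with an adjusted exact permutation p of 0.00325.

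The 10 lower members were spread over the particle, with Psmc3ip at −0.80, Psmg1 at −0.47, Psmd6 and Psmd13 of the lid at −0.37 each, Psmb3 at −0.28 and Psmd9 at −0.26, and Psmc1, Psme3, Psmb1 and Psmd8 between −0.17 and −0.11. With all 18 samples in 1 fit, 15 members were higher and 4 lower, and Psmb3, Psmd9, Psmc1, Psme3, Psmb1 and Psmd8 no longer passed. With size factors by the median of ratios, 38 members were higher and 2 lower, and the share of higher genes among all passing genes went from 25.6% to 49.2%. The differences of Psmb3, Psmb1, Psmc1, Psmd8, Psmd9 and Psme3 were then above 0, and Psmb1, Psmd8 and Psme3 were among the higher members. Psmd10, Psma5 and Psme4 were higher by 0.85 ± 0.10, 0.64 ± 0.07 and 0.47 ± 0.04 (limma adjusted p = 3.51e-06, 1.99e-06 and 9.02e-08), and Psmd11 and Psmc6 by 0.42 and 0.34.

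**Figure D5:**
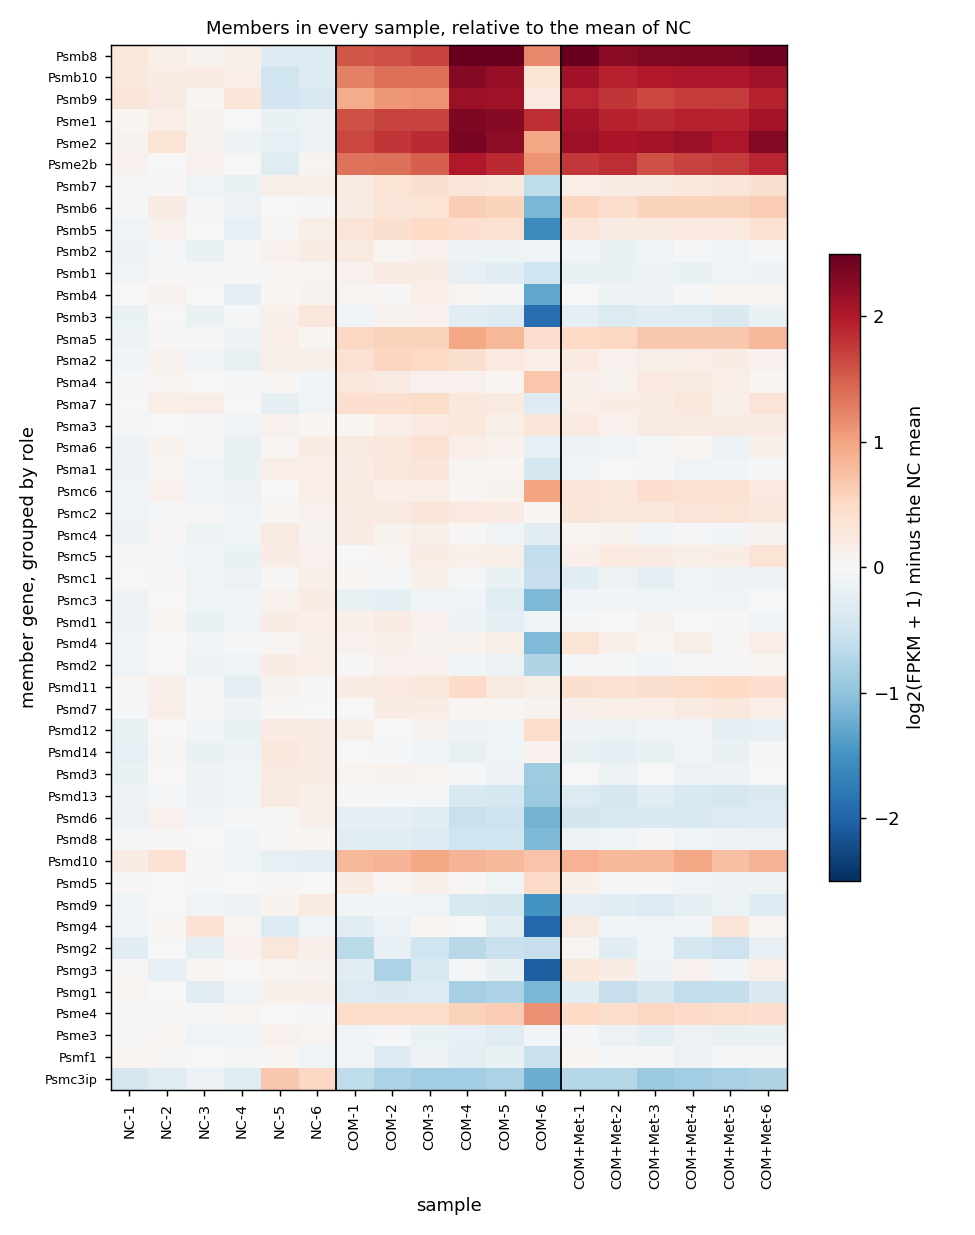
Log2(FPKM + 1) minus the mean of NC for the 48 tested members (rows, by role) in all 18 samples (columns). The block of Psmb8 to Psme2b is red in COM and COM+Met, pale for Psmb9 and Psmb10 in COM-6 and deepest within COM in COM-4 and COM-5, and COM-6 holds most of the deep blue cells.

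Genes that work with the proteasome were taken from lists. Of 12 partners in assembly, substrate delivery and trimming, 3 were higher and 3 lower in COM against NC (median −0.15, beside −0.27 for all genes), read against 12.7% and 40.6% of all genes. The proteasome-binding scaffold Ecpas rose by 0.43 ± 0.11 (limma adjusted p = 0.0048). Usp14, a deubiquitinase of the particle, and Akirin2, its nuclear import adaptor, fell by 0.71 and 0.62 on the log2 scale (limma adjusted p = 0.00052 and 8.3e-05). Of 7 tested genes that control proteasome genes, 0 were higher and 2 lower, the protease Ddi2 by 0.85 and the deglycosylase Ngly1 by 0.57, both of which process the transcription factor Nfe2l1. Nfe2l1 itself was at 0.23 and did not pass. Without COM-6, 2 of the 7 were higher and 2 lower, beside 15.5% and 44.2% of all genes. Nfe2l1, at 0.43 ± 0.13, then passed (limma adjusted p = 0.0115). In COM+Met it was 0.74 ± 0.11 above NC (limma adjusted p = 4.7e-05). Of 5 genes of ubiquitin supply, 2 were higher and 2 lower (3 and 2 without COM-6). The polyubiquitin gene Ubb rose by 0.58 and the ubiquitin-ribosome fusion Rps27a fell by 1.43 on the log2 scale.

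Of 11 genes of the class I peptide route, 10 were higher in COM against NC and 0 lower (median 1.10), beside 12.7% and 40.6% of all genes. B2m, the light chain of class I, rose by 2.46 ± 0.29, the class I heavy chain H2-K1 by 2.33 ± 0.29 and Tap1, the neighbour of Psmb9, by 2.11 ± 0.30 (limma adjusted p = 2e-05, 3.6e-05 and 8.9e-05). The chaperones Calr and Pdia3 rose by 0.78 and 0.66, and Canx, at −0.04, did not pass. Of 8 interferon control genes, 7 were higher and 0 lower (median 1.27), read against the same shares. Stat2 was at 2.26 ± 0.28, Irf8 at 0.84 ± 0.25 and Stat3 at 0.62 ± 0.09, while Irf2, at −0.13, did not pass. Without COM-6, 7 were higher and 1 lower, beside 15.5% and 44.2% of all genes, and the lower 1 was Irf2, at −0.26. In COM+Met against COM, 0 of 11 class I genes passed, beside 5.77% higher and 7.58% lower over all genes. Without COM-6, 2 passed as higher, the peptide-trimming Erap1 at 0.62 ± 0.14 and Canx at 0.15 ± 0.05 (limma adjusted p = 0.00897 and 0.0422), beside 10.6% of all genes. Of the 8 interferon control genes, 1 was higher and 1 lower in COM+Met against COM, with COM-6, beside 5.77% and 7.58% of all genes. Irf1, a factor known to act on Psmb9 and Tap1, rose by 0.72 ± 0.22 and Stat3 fell by 0.35 (limma adjusted p = 0.045 and 0.0076). Without COM-6, 1 was higher and 2 lower, beside 10.6% and 15.9% of all genes, with differences from −0.53 to 0.75 over the 8. Irf1 was at 48.5 to 53.6 FPKM in COM-1 to COM-3 and 78.3 in COM-6. In COM-4 and COM-5 it was at 110.8, within the COM+Met range of 107 to 149.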

How the data were processed

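RNA of 18 BMDM samples, 6 in each group, was made into TruSeq libraries. The authors deposited FPKM values for each gene and sample, unpooled. Bowtie 0.12.2 appears in the submitters' processing notes, along with builds mm8 and mm9, without roles, while quantifier, annotation and strand setting are not stated there. Depth is unknown, low values showed no common step from which whole reads could be rebuilt, and no counting interval was given. All sample columns were used, and 0 pairs of samples held identical values.

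Values were taken as log2(FPKM + 1), and genes averaging under 1 FPKM in the 12 samples of a comparison were dropped. The remaining genes went into limma 3.58.1 (R 4.3.3; lmFit, eBayes with trend). P-values were adjusted by Benjamini-Hochberg across every gene in the fit, and genes passed at an adjusted p below 0.05. The paper states no RNA-seq test. Catalytic pairs were compared through their log2 ratios, with an exact permutation test (two-sided). The procedure was tested on simulated data. Positions and GC content came from GENCODE M21 (GRCm38) and start regions from RefSeq (GRCm38.p6). Further tables used pandas 2.3.3 and numpy 2.4.6 under Python 3.11.15, and plots used matplotlib 3.10.9.

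The members and gene lists were chosen with earlier results of these data known. Named were the 5 immunoproteasome genes and their 3 constitutive partners, the 5 largest rises and 5 largest falls among passing members, the highest and lowest member of each class, and of each further list the 2 highest and 2 lowest passing genes, some of which are not reported here. Other names were chosen after their values were seen. Same-numbered samples did not deviate together (0 of 6 pairs above 0.1 in each comparison), so the numbers were not taken as pairs. The alternatives were other pseudocounts (0.1 and 5), filters (none, 5 FPKM) and scalings (TPM, median-of-ratios, quantiles), a replicate block, all 18 samples in 1 fit, sample weights and each sample left out, and, added after seeing the data, removal of GC and length trends and of samples standing apart.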

Additional observations from a re-analysis of the deposited data

Results flagged for a closer look

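In 21 of 142 groups of 6 samples examined among the members, the highest or lowest sample was so far from its nearest neighbour, as a share of the group's range, that the gap passed Dixon's critical value, which chance alone passes in about 5% of groups. COM-6 was that sample in 16 of the 21. It was lowest of COM for Psmd8 (98.2 FPKM), Psmb6 (71.8), Psmd2 (57.6), Psmb5 (43.3), Psmb7 (40.5), Psmb4 (38.1), Psmc5 (32.1), Psmc3 (32.0), Psmd4 (30.4), Psmb3 (25.2), Psmd3 (24.6), Psmg4 (2.80) and Psmd9 (2.47). It was highest of COM for Psma4 (149 FPKM), Psmc6 (67.5) and Psme4 (36.7). None of the 5 immunoproteasome genes was among these. The nearest COM value was 167 FPKM for Psmb5 and 70.7 for Psmd4.

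The other samples so marked were COM-4, highest of COM for Psmd11 (30.7 FPKM), NC-4, lowest of NC for Psmb4 (81.7), NC-5, lowest of NC for Psme2b (28.2), COM+Met-2, lowest of COM+Met for Psma3 (31.0), and COM+Met-6, highest of COM+Met for Psmc3 (71.9). The counts of members that passed are given with and without COM-6.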

How the results depend on the processing

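Against NC, the 5 immunoproteasome genes, Psmd10, Psma5 and Psme4 kept their direction and passed in each alternative run. The 3 pair ratios did so with the other pseudocounts and with each sample left out, and the remaining alternatives were not run on them. In COM against NC, the 12 higher members became 26 with median-of-ratios factors, 32 with sample weights and 21 without COM-6, NC-5 and NC-6, and the 6 lower became 2 with median-of-ratios factors and 3 with quantile normalisation. Leaving out a sample gave 10 to 18 higher and 5 to 7 lower. In COM+Met against COM, the 0 higher and 0 lower members became 12 and 18 with sample weights, 1 and 1 with median-of-ratios factors and with quantiles, 1 and 0 with all 18 samples and after removal of GC and length trends, and 0 and 1 with TPM. Leaving out a sample gave 0 to 3 higher (2 without COM-4, 3 without COM-6) and 0 to 3 lower (3 without COM-6), and a Psmb10 to Psmb7 difference of 0.39 to 0.59, which passed without COM-4 or without COM-5 (0.59 and 0.58). In COM+Met against NC, the 22 higher became 38 with median-of-ratios factors and 15 with all 18 samples, and the 10 lower became 2 with median-of-ratios factors, 3 with quantiles, 4 with all 18 samples, 14 with TPM and 13 after removal of GC and length trends. Leaving out a sample gave 20 to 22 and 10 to 12. The cause of these shifts was not tested.

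Counting members that passed in either of the fits compared, signs turned as follows. In COM against NC, with median-of-ratios factors, these were Psmb1 (0.22), Psmc5 (0.29), Psmd1 (0.30) and Psmf1 (0.022), with quantiles Psmf1 (0.040), and without COM-6, NC-5 and NC-6 Psmc5 (0.18) and Psmd4 (0.16). With sample weights they were Psmb1 (0.18), Psmc5 (0.14), Psmd1 (0.22), Psmd2 (0.15), Psmd3 (0.16) and Psmd4 (0.15). In COM+Met against COM, with sample weights, they were Psmb3 (−0.32), Psmb5 (−0.15), Psmd1 (−0.12), Psmd2 (−0.10), Psmd3 (−0.15), Psmd6 (−0.11) and Psmd9 (−0.16). In COM+Met against NC, with median-of-ratios factors, 15 members turned: Psma1 (0.24), Psma6 (0.25), Psmb1 (0.15), Psmb2 (0.21), Psmb3 (0.014), Psmb4 (0.26), Psmc1 (0.12), Psmc3 (0.22), Psmd2 (0.26), Psmd3 (0.22), Psmd5 (0.22), Psmd8 (0.18), Psmd9 (0.0010), Psme3 (0.13) and Psmf1 (0.22). With quantiles they were Psmd5 (0.22), Psmd9 (0.025) and Psmf1 (0.25).

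With the replicate number as a block, 10 members were higher and 5 lower in COM against NC, 0 and 0 in COM+Met against COM, and 20 and 9 in COM+Met against NC, and 0 samples correlated best with their own number. FPKM carries no read depth, so the precision of low members such as Psmc3ip and Psmg1 to Psmg4 is unknown.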
